A study of Mus musculus with 12 samples.

Results

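Transcripts that mark T cells, B cells and natural killer (NK) cells were followed in whole liver from mice with and without *Yap1*. The markers were 9 genes taken by symbol from the deposited table of 25676 genes: *Cd3e*, *Cd3g*, *Cd4* and *Cd8a* for T cells, *Nkg7*, *Gzma* and *Klrb1c* for NK and cytotoxic cells, and *Cd79a* and *Ms4a1* for B cells. They were chosen for what they mark, and all 9 were found. Bulk RNA sequencing gave 1 library for each of 12 mice on a C57BL/6 background at 3 to 4 months of age. The 6 knockout mice (KO) are labelled as *YAP1* knockouts made with Cre under *Foxa3* and the other 6 as wild type (WT). Each genotype had 3 males and 3 females, giving 4 groups of 3. Whether the WT mice carried floxed alleles or Cre is not given in the sources used here. *Foxa3* is active in the embryonic gut endoderm, so Cre reaches hepatocytes and bile duct cells, whereas lymphocytes come from the blood lineage.

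The healthy liver holds resident and circulating lymphocytes in its sinusoids and around the portal veins, and the mouse liver is known for its abundant NK and NKT cells. T cells recognise antigen through a receptor whose signal is carried by the CD3 chains, with CD4 or CD8 as co-receptor on helper or cytotoxic cells. NK and cytotoxic T cells kill through granules that hold granzymes, and B cells signal through CD79A and CD79B beside their surface immunoglobulin. All of these cells are few beside hepatocytes, so in whole liver RNA their transcripts are rare. In a bulk sample, fewer lymphocytes and less RNA per lymphocyte cannot be told apart.

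The knockout label was checked with *Yap1* itself, which was at 29.5 ± 4.46 TPM in WT (SD, n = 6) and 2.02 ± 0.775 TPM in KO (n = 6), without overlap. TPM divides the reads of a gene by its transcript length and scales each library to the same sum. The tissue label was checked with 10 hepatocyte genes, which together held between 108260 and 150404 TPM in each of the 12 libraries. The 12278 genes with a mean of at least 0.5 TPM were tested on the log2(TPM + 1) scale with limma, and a gene was called at a Benjamini-Hochberg adjusted p under 0.05 over all tested genes. On this scale the change of low genes is understated, and a KO minus WT difference of 0 is not the centre of the data: the median over all tested genes was 0.35 with the TPM as deposited and -0.04 after median-of-ratios rescaling. That rescaling also changed the split of calls over all genes, from 6153 higher and 592 lower to 2568 higher and 2293 lower. The 2 earliest animals by number were 1 KO and 1 WT female, too few to compare within that series, and 1 WT male came from a library series of its own.

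All 9 markers were at the low edge of what these libraries measure. In order of mean TPM over the 12 mice they were *Nkg7* at 1.02, *Cd3g* at 0.924, *Cd3e* at 0.709, *Cd79a* at 0.700, *Gzma* at 0.647, *Cd4* at 0.503, *Cd8a* at 0.254, *Klrb1c* at 0.188 and *Ms4a1* at 0.144. The ranges over mice of all neighbours in this order overlapped, for example 0.260 to 2.07 TPM for *Nkg7* and 0 to 1.93 TPM for *Cd3g*. Because a gene's values are whole multiples of what 1 read is worth, the reads behind each value could be recovered: 1033 reads in all, 37 to 154 per library over the 9 genes. Of the 108 values, 61 rested on fewer than 10 reads and 5 were 0. The transcript lengths these steps imply equalled an annotated length exactly for 8 of the 9 genes. For *Cd8a* the implied length was 3132 bases against 3128 for the nearest transcript. In the test, 6 markers passed the filter on low values, with *Cd4* just inside it at 0.503 TPM. *Cd8a*, *Klrb1c* and *Ms4a1* did not pass, and *Cd8a* at 0.254 TPM was the nearest below, so these 3 are given from the fit of all 17332 genes above 0 in at least 1 library.

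**Figure D1:**
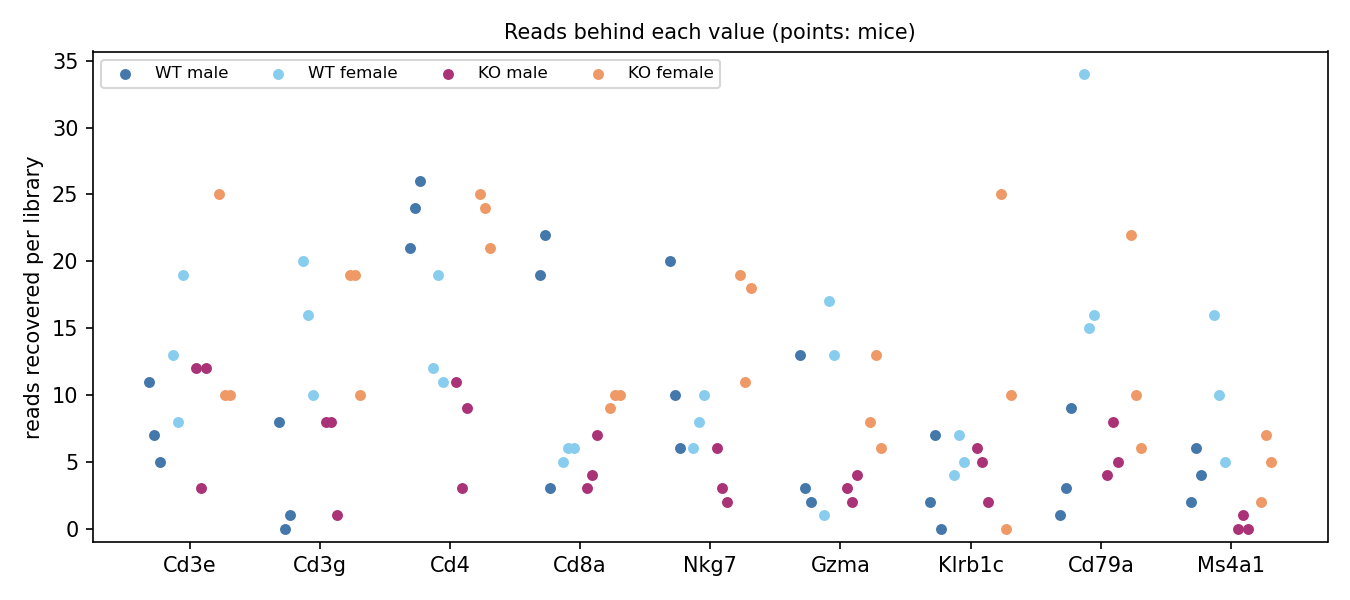
Reads behind each value. The vertical axis gives the reads recovered per library, with 1 point per mouse and 1 colour per group (3 mice each). Most points lie under 10 reads, and *Cd4* has the most reads in all, 206 over the 12 libraries.

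No lymphocyte marker passed the test between genotypes over both sexes as set out above, and *Ms4a1* came nearest. With limma, 0 of the 6 tested markers were called between KO and WT, and 0 had an unadjusted p under 0.05, where 54.9% of all tested genes were called and 60.6% had such a p. Without the filter, 0 of 9 were called, against 41.6% of all genes, and 1 had an unadjusted p under 0.05, against 48.8% of all genes. The KO and WT ranges overlapped for all 9 markers, whereas they were separate for 30.6% of tested genes. The median difference of the 6 markers was -0.00 as deposited and -0.19 after rescaling, each below the median of all genes on the same scale. In the authors' deposited table, the FDR of the 9 markers ran from 0.10 for *Cd8a* to 0.81 for *Cd3e*, and 24.2% of the 17332 genes given an FDR there were under 0.05. The authors' log2 fold changes ran from -1.44 for *Ms4a1* and -1.34 for *Cd8a* to 0.81 for *Klrb1c*. Those of *Nkg7* (-0.39) and *Cd79a* (0.48) had the other sign from the differences given below.

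**Figure D2:**
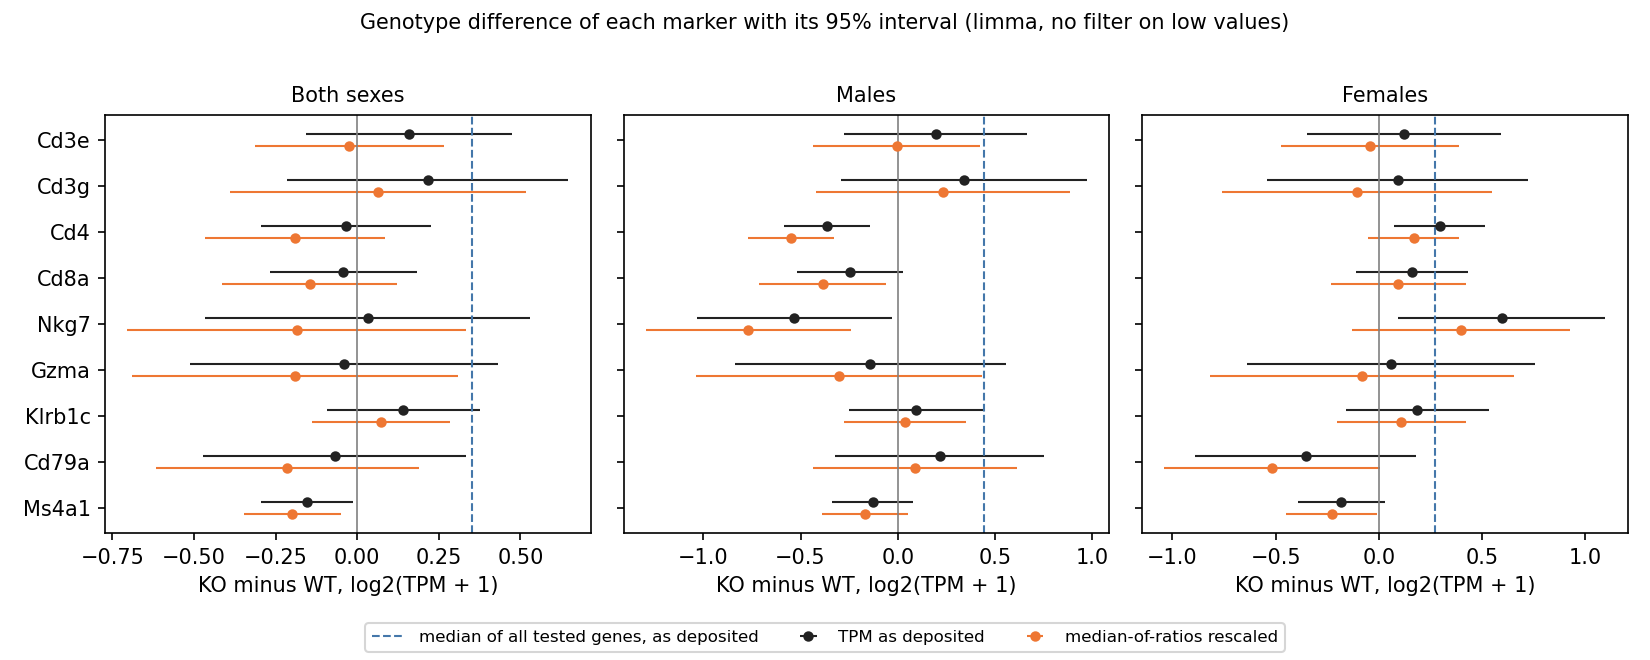
Genotype difference of each marker. The horizontal axis is KO minus WT on the log2(TPM + 1) scale over both sexes, in males and in females, points are limma estimates over all genes above 0 and bars their 95% intervals, in black for TPM as deposited and orange after median-of-ratios rescaling. Over both sexes only the *Ms4a1* interval lies below 0 as deposited, and the points of *Cd4* and *Nkg7* lie below 0 in males and above 0 in females.

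The CD3 chains carry the T cell receptor signal. *Cd3e* (ENSMUSG00000032093, chr9:44998740-45009627, minus strand) encodes CD3 epsilon, which every T cell receptor complex contains, and overlaps the annotated genes *Gm48719* and *Gm48720*. It ranged from 0.262 to 0.923 TPM with a median of 0.601 in the WT mice, and from 0.220 to 1.49 TPM with a median of 0.791 in the KO mice. The KO range thus contained the whole WT range, and the KO minus WT difference was 0.16 (SE 0.154, limma adjusted p = 0.403, 95% interval -0.17 to 0.49). Its reads numbered 63 in WT and 72 in KO.

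*Cd3g* (ENSMUSG00000002033, chr9:44969572-44980431, minus strand) encodes CD3 gamma and lies near *Cd3e* on chromosome 9. It was at 0.713, 0 and 0.0748 TPM in the WT males, 1.90, 1.48 and 0.694 TPM in the WT females, 0.832, 0.838 and 0.112 TPM in the KO males, and 1.62, 1.93 and 0.915 TPM in the KO females. Females of either genotype were mostly higher than males, and the KO females lay above all KO males. The 0 in a WT male allows up to 0.239 TPM, the worth of 3 reads in that library. The KO minus WT difference was 0.22 (SE 0.197, limma adjusted p = 0.370, interval -0.21 to 0.64). Although *Cd3e* and *Cd3g* belong to 1 complex, their deviations from the group means over the 12 mice had a Pearson r of 0.01, a description at about 10 reads per value.

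*Cd4* (ENSMUSG00000023274, chr6:124864692-124888221, minus strand), the co-receptor of helper T cells, is also made by some dendritic cells. The WT males were at 0.616, 0.629 and 0.640 TPM and the WT females at 0.374, 0.577 and 0.251 TPM. The KO males were at 0.376, 0.103 and 0.332 TPM and the KO females at 0.700, 0.801 and 0.633 TPM. All KO males thus lay below all WT males, and all KO females above all WT females. Over both sexes the difference was -0.04 (SE 0.136, limma adjusted p = 0.840, interval -0.33 to 0.26).

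*Cd8a* (ENSMUSG00000053977, chr6:71373427-71379173, plus strand) encodes the alpha chain of the cytotoxic T cell co-receptor. In the WT males 2 values were high, 0.553 and 0.572 TPM, and 1 was 0.0733 TPM. The WT females lay between 0.136 and 0.181 TPM, the KO males between 0.102 and 0.256 TPM and the KO females between 0.250 and 0.331 TPM. The KO females were above all WT females, and the 2 high WT males were above every other mouse. The difference over both sexes was -0.04 (SE 0.102, limma adjusted p = 0.770 without the filter).

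Of the NK and cytotoxic markers, *Nkg7* (ENSMUSG00000004612, chr7:43437073-43438249, plus strand) encodes a membrane protein of cytotoxic granules in NK and killer T cells. It was at 2.07, 0.925 and 0.521 TPM in the WT males, 0.660, 0.856 and 0.806 TPM in the WT females, 0.724, 0.365 and 0.260 TPM in the KO males, and 1.88, 1.30 and 1.91 TPM in the KO females. The KO females were higher than all WT females and all KO males, and 1 WT male was the highest of the 12 mice. Over both sexes the difference was 0.03 (SE 0.223, limma adjusted p = 0.912, interval -0.45 to 0.51).

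*Gzma* (ENSMUSG00000023132, chr13:113093825-113100981, minus strand) encodes granzyme A, a serine protease of those granules. It ranged from 0.0964 to 1.59 TPM with a median of 0.580 in WT, and from 0.213 to 1.34 TPM with a median of 0.507 in KO. The widest spread was among the WT females, at 0.0964, 1.59 and 0.918 TPM, while the KO males, at 0.317, 0.213 and 0.456 TPM, all lay below the KO females, at 0.692, 1.34 and 0.559 TPM. The difference between genotypes was -0.04 (SE 0.215, limma adjusted p = 0.883). *Klrb1c* (ENSMUSG00000030325, chr6:128778485-128789215, minus strand) encodes the NK1.1 receptor by which NK cells of this strain are recognised. It was at 0 to 0.223 TPM in WT and 0 to 0.735 TPM in KO, where the zeros allow up to 0.105 TPM, and its difference was 0.14 (SE 0.107, limma adjusted p = 0.329 without the filter). Its reads may be shared with the neighbouring *Klrb1* paralogs and with the overlapping *Gm44511*, so its value is uncertain.

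Of the B cell markers, *Cd79a* (ENSMUSG00000003379, chr7:24897381-24902197, plus strand) encodes the signalling chain of the B cell receptor. It was at 0.0626, 0.168 and 0.473 TPM in the WT males, 2.26, 0.971 and 0.780 TPM in the WT females, 0.292, 0.588 and 0.394 TPM in the KO males, and 1.31, 0.712 and 0.386 TPM in the KO females. All WT females lay above all WT males, while the KO sexes overlapped. The genotype difference was -0.07 (SE 0.188, limma adjusted p = 0.771, interval -0.47 to 0.34).

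*Ms4a1* (ENSMUSG00000024673, chr19:11249675-11266241, minus strand) encodes CD20, a surface protein of mature B cells, and overlaps *4930526L06Rik*. The WT males were at 0.0593, 0.159 and 0.0996 TPM and the WT females at 0.505, 0.307 and 0.115 TPM. The KO males were at 0, 0.0348 and 0 TPM and the KO females at 0.0566, 0.236 and 0.152 TPM. All KO males were listed below every other mouse, but the 2 zeros allow up to 0.104 and 0.112 TPM, above the 2 lowest WT males and the lowest KO female. The KO males had 1 read over their 3 libraries (exact Poisson 95% interval 0.0253 to 5.57 reads, counting error only) against 12 reads in the WT males. In total 43 reads fell in WT and 15 in KO. The genotype difference was -0.15 (SE 0.0643, interval -0.30 to -0.01), with a limma adjusted p of 0.0755 without the filter. It passed the threshold in 5 of 17 alternatives run without the filter: with rescaling (-0.20, adjusted p = 0.0474), with a pseudocount of 0.1 (-0.77, adjusted p = 0.0357), with the early animals as a covariate (-0.15, adjusted p = 0.0141) or left out (-0.17, adjusted p = 0.0211), and without WT female replicate 3 (-0.20, adjusted p = 0.0150). Over the 17 its adjusted p reached 0.178 and its sign was negative throughout, with a difference of -0.10 without WT female replicate 1 (adjusted p = 0.135).

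**Figure D3:**
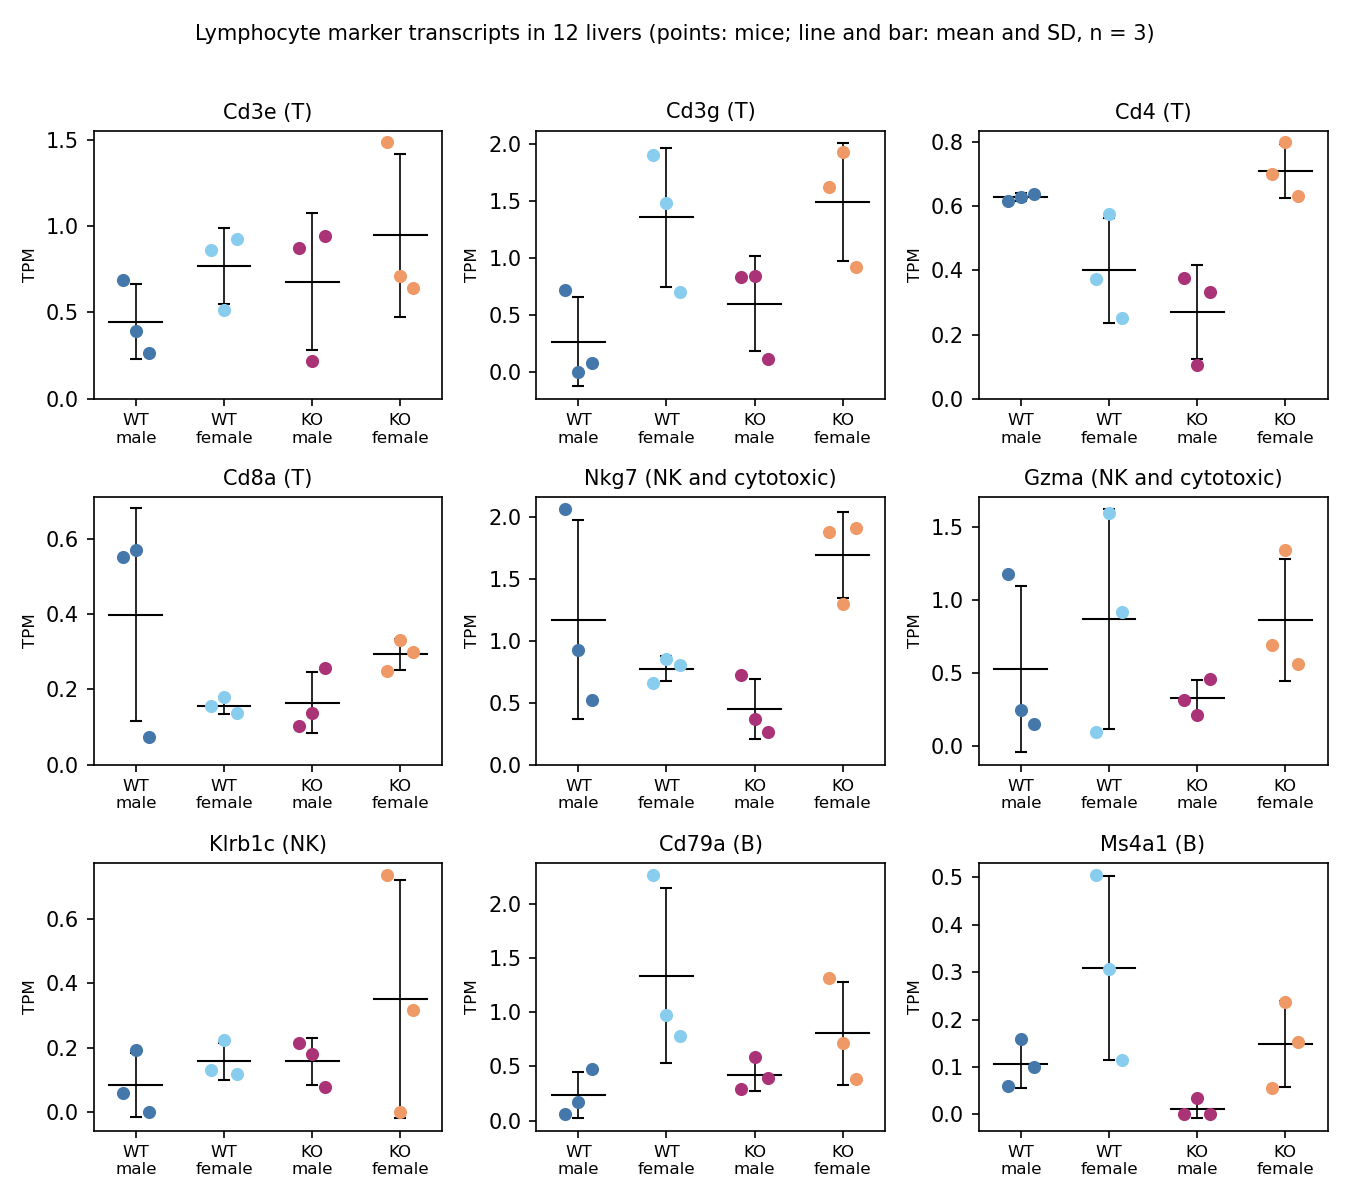
The 9 markers in every mouse. Vertical axes are TPM as deposited, points are mice, and the line and bar give the mean and SD of each group of 3. *Cd4* runs opposite ways in the sexes, KO males of *Ms4a1* lie between 0 and 0.0348 TPM, and *Cd79a* is between 0.0626 and 0.473 TPM in WT males against 0.780 to 2.26 TPM in WT females.

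Within males, *Cd4* and *Nkg7* had the largest KO minus WT differences of the tested markers, both negative, while *Cd3g* was near *Cd4* in size with the other sign. *Cd4* differed by -0.36 (SE 0.151, limma adjusted p = 0.0640) and *Nkg7* by -0.53 (SE 0.234, adjusted p = 0.0785). The other tested markers were at 0.34 for *Cd3g* (SE 0.284, adjusted p = 0.332), 0.22 for *Cd79a*, 0.20 for *Cd3e* and -0.14 for *Gzma*. No tested marker was called in males (0 of 6, 2 with an unadjusted p under 0.05) where 46.1% of genes were and 54.2% had such a p, and *Cd4* alone was called without the filter (1 of 9, adjusted p = 0.0186), where 32.3% of genes were. After rescaling both passed the threshold, *Cd4* at -0.55 (adjusted p = 0.0148) and *Nkg7* at -0.77 (adjusted p = 0.0354). *Cd4* also passed with a pseudocount of 0.1 at -1.07 (adjusted p = 0.0488), and over 18 alternatives its adjusted p ran from 0.00349 to 0.205. With that pseudocount the largest difference of the 6 was that of *Cd3g*, 1.23 (limma adjusted p = 0.196). *Nkg7* also passed without WT male replicate 3 at -0.76 (adjusted p = 0.0207), whereas without WT male replicate 1, the mouse with the highest value, its difference was -0.25 (adjusted p = 0.331), the highest adjusted p of the 18. The KO and WT males did not overlap for *Cd4* and *Ms4a1*, both lower in KO, among the 9 markers, though for *Ms4a1* the floor of the KO male zeros lies above 2 WT males. Over all tested genes, which leave out *Ms4a1*, 54.3% were separate, 3.42% with KO lower. These shares hold for TPM as deposited, where the median male difference over all genes was 0.44, against -0.04 after rescaling. Separations were not counted after rescaling, so the share with KO lower depends on the scaling.

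Within females the differences of these 2 genes had the other sign, and *Cd79a* had a negative one. *Nkg7* was higher in KO by 0.60 (SE 0.234, limma adjusted p = 0.0674) and *Cd4* by 0.29 (SE 0.151, adjusted p = 0.155). After rescaling both were smaller, *Nkg7* at 0.40 (adjusted p = 0.250) and *Cd4* at 0.17 (adjusted p = 0.423). *Cd79a* was at -0.35 (SE 0.250, adjusted p = 0.304), at -0.52 after rescaling (adjusted p = 0.141) and at -0.72 without the 2 early animals (adjusted p = 0.0761). No tested marker was called (0 of 6, 1 with an unadjusted p under 0.05) against 33.8% of genes, with 43.3% at such a p. *Nkg7* passed without WT male replicate 1 (0.60, adjusted p = 0.0262) or replicate 3 (0.60, adjusted p = 0.0422), which are not in this comparison but enter its shared estimate of the spread, and its adjusted p ran from 0.0262 to 0.296 over the 18 alternatives. KO and WT females did not overlap for *Cd4*, *Cd8a* and *Nkg7*, all higher in KO, where 43.5% of all tested genes were separate in that direction.

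The test of the difference between the sexes in the genotype effect called 0 of 6 markers and 0.912% of all genes. An unadjusted p under 0.05 was reached by 2 of the 6 and by 8.85% of all genes. Without the filter 0 of 9 markers and 0.531% of genes were called, and 3 of the 9 and 7.92% of genes had an unadjusted p under 0.05. The male effect minus the female effect was -0.66 for *Cd4* (SE 0.213, unadjusted p = 0.00892, limma adjusted p = 0.325) and -1.13 for *Nkg7* (SE 0.331, unadjusted p = 0.00483, adjusted p = 0.246). Over 18 alternatives the adjusted p ran from 0.0692 to 0.596 for *Cd4* and from 0.0581 to 0.485 for *Nkg7*, so neither passed under any of them. The third marker, *Cd8a*, had differences of -0.25 in males and 0.16 in females, and the male effect minus the female effect was -0.41 (SE 0.174, unadjusted p = 0.0406, adjusted p = 0.604 without the filter). A separation of KO from WT in opposite directions in the sexes was seen for 64 of the 12278 genes, 0.521%, and for 1 of the 9 markers, *Cd4*. The *Cd4* values rest on 71 reads in WT males and 23 in KO males, and on 42 in WT females and 70 in KO females.

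Between the sexes, the markers with the largest differences had lower values in males, but in the WT mice the separations ran both ways: *Cd79a* was lower and *Cd4* higher in every male than in every female. Among the WT mice 33.5% of all tested genes were separate between the sexes, 27.5% lower and 5.99% higher in males. In these mice *Cd79a* differed by -0.88 (male minus female, SE 0.250, limma adjusted p = 0.0576), *Cd3g* by -0.91 (SE 0.284, adjusted p = 0.0812) and *Cd4* by 0.22 (SE 0.151, adjusted p = 0.362). *Ms4a1* was at -0.23 (SE 0.0944, unadjusted p = 0.0319, adjusted p = 0.207 without the filter). No tested marker was called (0 of 6, 2 with an unadjusted p under 0.05) against 5.74% of genes, with 25.6% at such a p. *Cd79a* passed the threshold in 4 of 18 alternatives: with a pseudocount of 0.1 (-2.16, adjusted p = 0.0403), without the 2 early animals (-1.05, adjusted p = 0.0398), without WT male replicate 3 (-1.02, adjusted p = 0.0341) and without KO female replicate 1 (-0.88, adjusted p = 0.0440). Over all 18 its adjusted p reached 0.201. Sums of other leukocyte transcripts also had lower values in WT males: the sum of 12 pan-leukocyte genes was 32.8 to 47.4 TPM in WT males and 53.8 to 82.2 TPM in WT females, and that of 15 macrophage and monocyte genes 120 to 159 TPM against 246 to 452 TPM. Of the 12 pan-leukocyte genes 1 was called lower in WT males, with a median of -0.48, and of the 15 macrophage and monocyte genes 6, with a median of -0.81, beside -0.28 for the 6 tested markers and -0.19 over all genes. Their part in the marker differences was not tested.

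In the KO mice 5 of the 9 markers, *Cd3g*, *Cd4*, *Nkg7*, *Gzma* and *Ms4a1*, were listed lower in every male than in every female, and none was higher. For *Ms4a1* the floor of the 2 male zeros lies above the lowest female. Over all tested genes 5.09% were separate in that direction. In the test itself 0 of 6 markers and 0.0814% of genes were called, and 3 of the 6 and 5.33% of genes had an unadjusted p under 0.05. The largest difference was that of *Nkg7*, -0.90 (SE 0.234, unadjusted p = 0.00215, limma adjusted p = 0.692). *Cd3g* was at -0.66 (SE 0.284) and *Cd4* at -0.43 (SE 0.151). The median of the 6 tested markers was -0.45, beside -0.00 over all genes. Taking both genotypes together, a comparison added after the values were seen, *Cd3g* differed by -0.78 (SE 0.197, limma adjusted p = 0.0795) and *Cd79a* by -0.60 (SE 0.188, adjusted p = 0.108). There 0 of 6 markers and 0.391% of genes were called, and 2 of the 6 and 22.7% of genes had an unadjusted p under 0.05. The sum of 7 red cell genes was also higher in KO females, 1462 to 3396 TPM, than in KO males, 564 to 1240 TPM. So was the sum of 9 stellate cell and fibroblast genes, 337 to 442 TPM against 175 to 326 TPM, with a median difference of -0.56 between KO males and females, and the median of 8 endothelial genes was -0.44. The part of these cells in the marker differences was not tested.

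The 250 bases before the start of *Cd3g* and of *Gzma* are shown because both belong to the 5 markers just described and their RefSeq start equals the annotated one, on GRCm38.p6. Capitals mark a match to the core of the RUNX factors (TGTGGT, or ACCACA on the other strand), which with the ETS factors (AGGAAG or CTTCCT) are known regulators of lymphocyte genes.
Cd3g, chr9:44980432-44980681, minus strand: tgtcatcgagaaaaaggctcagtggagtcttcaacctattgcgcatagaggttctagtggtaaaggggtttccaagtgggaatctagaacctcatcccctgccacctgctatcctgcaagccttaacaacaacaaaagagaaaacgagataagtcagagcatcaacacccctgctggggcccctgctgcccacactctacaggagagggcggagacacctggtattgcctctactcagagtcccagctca
Gzma, chr13:113100982-113101231, minus strand: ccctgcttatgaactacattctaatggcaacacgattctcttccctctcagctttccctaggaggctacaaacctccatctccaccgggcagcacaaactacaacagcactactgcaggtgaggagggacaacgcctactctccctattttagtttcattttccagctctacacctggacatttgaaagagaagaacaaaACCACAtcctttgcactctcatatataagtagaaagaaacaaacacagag
*Cd3g* held neither motif in this window and *Gzma* held 1 RUNX core. Of the 7 markers with a RefSeq promoter entry, 4 held the ETS core and 3 the RUNX core, on either strand. Among all 32851 promoter windows of the same length, 29.5% held the ETS core and 14.0% the RUNX core. A match describes the letters only.

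Summed over the 9 markers, the level was 3.86 ± 1.92 TPM in WT males (SD, n = 3), 6.13 ± 1.21 TPM in WT females, 3.08 ± 0.569 TPM in KO males and 7.30 ± 1.46 TPM in KO females. The KO males, at 2.68 to 3.73 TPM, lay below all KO females, at 5.81 to 8.73 TPM, while the WT sexes overlapped. By genotype the sums were 4.99 ± 1.90 TPM in WT (n = 6) and 5.19 ± 2.51 TPM in KO (n = 6). General leukocyte and macrophage transcripts were higher in KO. The sum of 12 pan-leukocyte genes was 32.8 to 82.2 TPM in WT and 134 to 261 TPM in KO, and that of 15 macrophage and monocyte genes 120 to 452 TPM in WT and 810 to 1604 TPM in KO, both without overlap. Set against the pan-leukocyte sum, the 9 markers, none of which is in that list, stood at 9.64 ± 2.21 TPM per 100 pan-leukocyte TPM in WT, with a range of 7.01 to 12.7, and 2.73 ± 1.00 in KO, with a range of 1.60 to 4.06. By group it was 9.51 ± 2.87 in WT males and 9.76 ± 1.97 in WT females (SD, n = 3), and 1.86 ± 0.218 in KO males and 3.61 ± 0.388 in KO females. All KO males lay below the KO females, which ran from 3.34 to 4.06, and both below all WT mice. The ratio was lower in KO with a similar marker sum and a higher pan-leukocyte sum, 51.5 ± 17.6 TPM in WT and 185 ± 41.9 TPM in KO. It describes 2 chosen lists and was not tested. None of the pan-leukocyte or macrophage genes was at 0 in all libraries.

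**Figure D4:**
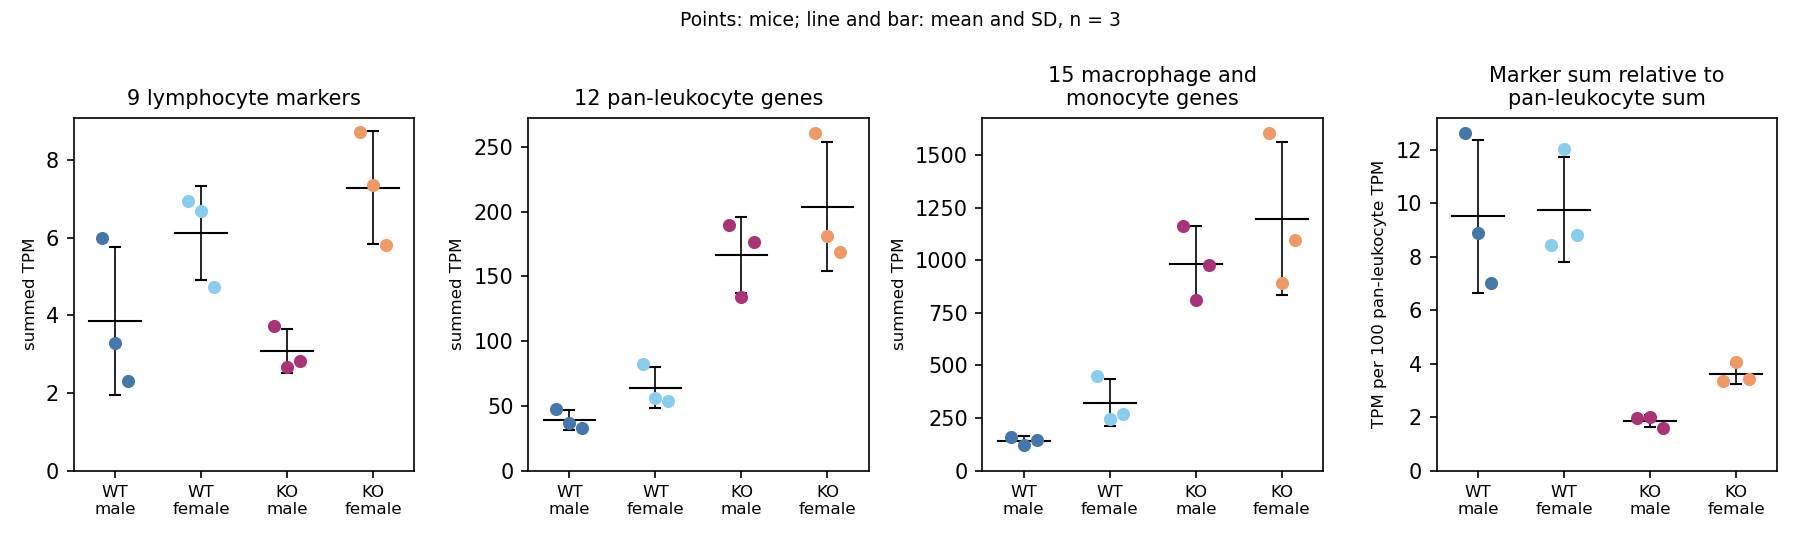
Summed levels per mouse. The first 3 panels give summed TPM of the 9 lymphocyte markers, the pan-leukocyte genes and the macrophage and monocyte genes, the last the marker sum per 100 pan-leukocyte TPM, with points for mice and line and bar for mean and SD (n = 3). The marker sums of KO and WT overlap, while the leukocyte and macrophage sums do not.

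A wider set of lymphocyte genes gave a mixed picture. Of 106 genes in 5 lists, 103 were in the table and 30 were tested, of which 11 were higher and 2 lower in KO, 43.3% of those tested against 54.9% of all genes. The filter took the mean over both genotypes, so a gene low in either genotype could enter through the other alone. Over all genes 50.1% were called higher and 4.82% lower, with a median of 0.35, and the counts of each list below stand beside these. After rescaling 8 were higher and 3 lower. In the list of T cell receptor and signalling genes, 6 were tested, 2 rose and 1 fell, with a median of 0.18. *Zap70*, the kinase that binds phosphorylated CD3 chains, fell from 8.21 ± 4.29 TPM in WT to 2.92 ± 1.27 TPM in KO (difference -1.15, SE 0.161, limma adjusted p = 5.8e-05), and by more after rescaling (-1.50). Its WT mean lay above those of *Cd3e* at 0.607 TPM and *Cd3g* at 0.809 TPM, whose differences were 0.16 and 0.22. How much of the *Zap70* transcript comes from T cells was not tested, so its fall cannot be read as a fall of T cells. *Lcp2*, the adaptor SLP-76, which myeloid cells and platelets also make, rose from 1.16 ± 0.558 to 4.23 ± 1.72 TPM (1.26, SE 0.209, adjusted p = 0.000233). *Thy1*, a surface protein of T cells and also of fibroblasts, rose by 0.52 (SE 0.183, adjusted p = 0.0274), a call lost after rescaling (0.22, adjusted p = 0.295) and without the 2 early animals (adjusted p = 0.122). The T cell kinase *Lck*, with a difference of 0.13, and the adaptor *Lat*, with -0.16, did not pass the test.

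In the list of T cell subset and activation genes, 7 were tested and 3 rose, with a median of 0.33. After rescaling these 3 were still called and *S1pr1*, a receptor that endothelium also makes, was called lower (-0.57, limma adjusted p = 0.00525). The 3 that rose were *Cd44* (1.78, SE 0.170), an adhesion receptor of many cell types, *Havcr2* (1.17, SE 0.138), which macrophages also make, and *Gata3* (0.81, SE 0.141), a transcription factor of helper T and innate lymphoid cells. *Havcr2* averaged 0.211 TPM in WT and 1.77 TPM in KO, and *Gata3* 0.124 TPM in WT and 1.02 TPM in KO. Both reached the filter of 0.5 TPM only through their KO values, so their place in the counts is not separate from their rise. Of 7 tested NK and cytotoxic genes, with a median of 0.34, only *Cd7* passed (0.57, SE 0.222, limma adjusted p = 0.0425), and it was lost after rescaling (0.39, adjusted p = 0.200) and without the 2 early animals (adjusted p = 0.118). *Gzmb*, a second granzyme, was at 0.37 (adjusted p = 0.0694) and *Ccl5*, a chemokine of killer cells, at 0.31 (adjusted p = 0.372).

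Of 6 tested B cell genes 4 rose and 1 fell, with a median of 0.56, and after rescaling 3 were higher and 1 lower. *Bank1*, a B cell scaffold protein, rose by 0.92 (SE 0.158), and *Cd37*, a tetraspanin of several leukocyte types, by 0.75 (SE 0.173). *Vpreb3*, a protein of B cell precursors, fell from 1.61 ± 2.04 to 0.120 ± 0.107 TPM (-0.91, SE 0.330, limma adjusted p = 0.0311), with WT values from 0.0948 to 5.31 TPM. It reached the filter of 0.5 TPM only through its WT values. *Cd22*, an inhibitory co-receptor of B cells, rose by 0.61 (SE 0.110, adjusted p = 0.000413), and was at 0.44 after rescaling (adjusted p = 0.00411). *Cd79b*, the partner of *Cd79a*, rose by 0.51 (SE 0.164, adjusted p = 0.0177), and was at 0.26 after rescaling (adjusted p = 0.167). Of 4 tested plasma cell genes 1 rose, *Jchain*, the joining chain of secreted IgA and IgM, from 3.57 ± 2.28 to 13.1 ± 5.05 TPM (1.69, SE 0.323, adjusted p = 0.000665). The receptor and antibody constant genes *Trac*, *Trbc1*, *Trbc2*, *Ighm* and *Igkc* were listed at 0 in all 12 libraries. With *Cd3e*, *Cd79a* and *Jchain* detected in them, such zeros cannot be read as a lack of expression. The constant gene *Iglc2* was listed above 0, at 1.65 ± 1.36 TPM in WT and 3.09 ± 2.85 TPM in KO (0.54, SE 0.413, limma adjusted p = 0.283).

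Among 14 tested genes that draw or hold lymphocytes, 6 rose and 0 fell in KO as deposited, with a median of 0.29, under the 0.35 of all genes. After rescaling 5 were higher and 2 lower, the latter being the chemokines *Cxcl11* (-0.63) and *Cxcl12* (-0.68). *Icam1*, an adhesion ligand for lymphocytes and other leukocytes, rose from 6.43 ± 1.01 to 32.3 ± 5.23 TPM (2.16, SE 0.131), and *Vcam1*, a similar ligand, from 2.80 ± 1.21 to 11.8 ± 2.33 TPM (1.78, SE 0.146). *Cxcl16*, the ligand of CXCR6 on liver NKT cells, rose by 1.76 (SE 0.134). Its receptor *Cxcr6*, with a difference of 0.32 (limma adjusted p = 0.176), did not pass. All 12 pan-leukocyte genes rose, with a median of 1.43, and 12 did so after rescaling. The largest differences among them were those of *Laptm5* (2.18, SE 0.186), *Cd53* (2.11, SE 0.195) and *Cd52* (2.03, SE 0.249). All 15 macrophage and monocyte genes rose as deposited, with a median of 2.01, and 14 did so after rescaling. Here the largest were those of the scavenger receptor *Marco* (3.49, SE 0.286), the lysozyme gene *Lyz2* (2.75, SE 0.251) and the chemokine receptor *Cx3cr1* (2.61, SE 0.218). *Cx3cr1* averaged 0.411 TPM in WT and reached the filter of 0.5 TPM only through its KO mean of 7.89 TPM. The 9 lymphocyte markers and these lists were thus measured in the same libraries with different outcomes, and the difference between lists was not tested.

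**Figure D5:**
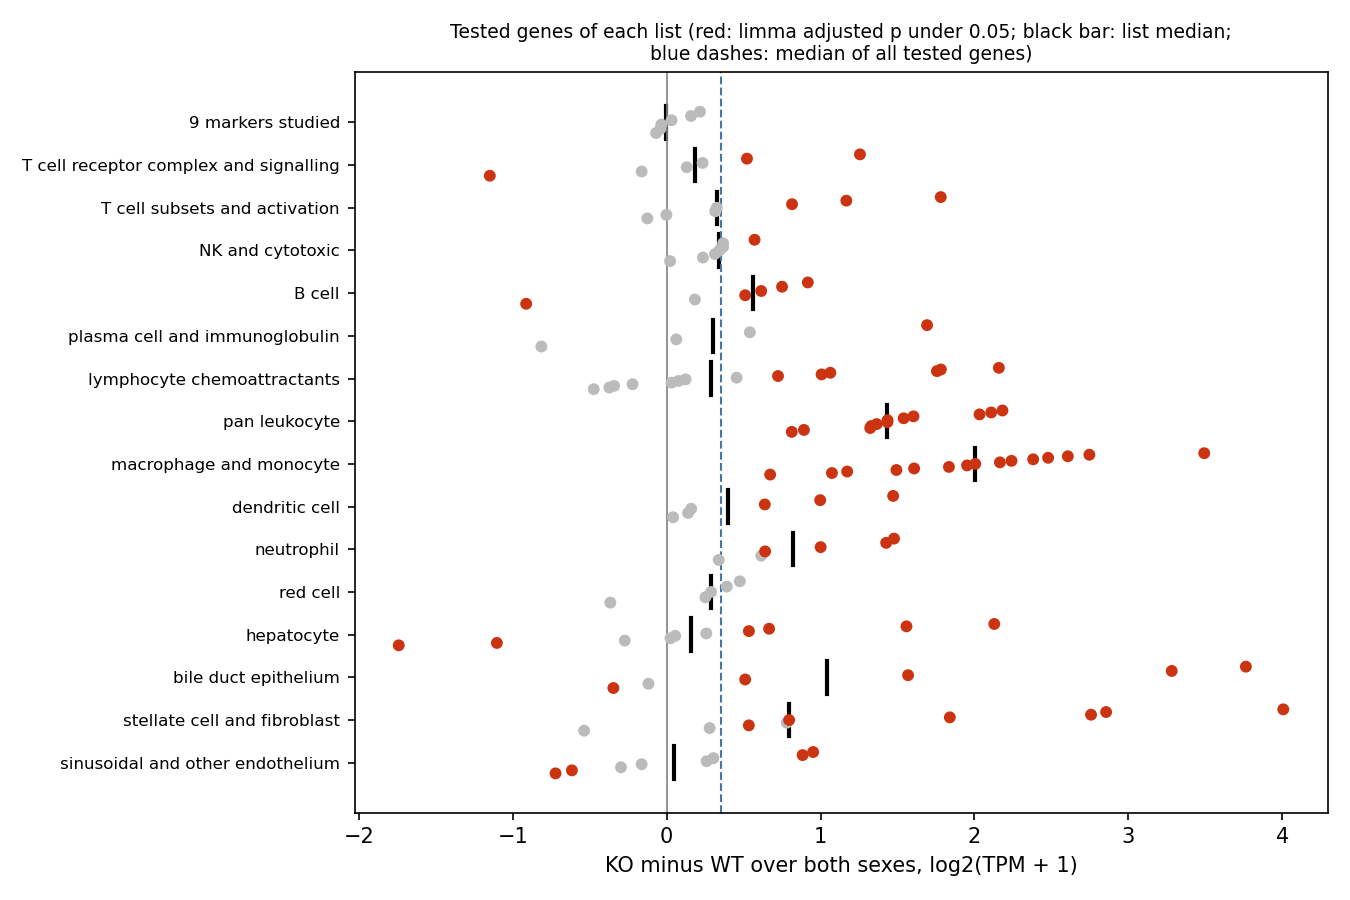
Genotype difference of the tested genes by list. The horizontal axis is KO minus WT over both sexes on the log2(TPM + 1) scale, each point is a gene, red where its limma adjusted p is under 0.05, black bars are list medians and the dashed line is the median of all tested genes. The 6 tested markers lie near 0 and none is red, while all pan-leukocyte and macrophage genes are red and to the right.

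The markers also varied little together. Over 36 pairs of the 9 markers, the Pearson r of their deviations from the 4 group means over 12 mice had a median of 0.11, a range of -0.61 to 0.47 and no pair over 0.5. All pairs come from the same libraries and rest on few reads, so these values are a description. The genes whose deviations most resembled the mean of *Cd3e* and *Cd3g* were *Hmgb2* (r = 0.956), *Ly6c2* (0.918), *Spdl1* (0.916), *Cd52* (0.915) and *Map4k2* (0.908). For *Nkg7*, *Gzma* and *Klrb1c* they were *Bbs5* (0.931), *Raet1d* (0.905), *4930579G24Rik* (0.895), *Vmp1* (0.864) and *Gask1a* (0.863). For *Cd79a* and *Ms4a1* they were *Milr1* (0.926), *Zkscan4* (0.873), *Tomm20* (0.865), *Slfn2* (0.857) and *Nptn* (0.849). These are the highest among all tested genes over 12 samples.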

How the data were processed

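RNA of 12 livers was sequenced as 1 library per mouse. The authors deposited a table of TPM per gene, with the authors' own fold change, log2 fold change and FDR of KO against WT, kept here as scores because many cells are blank, per the file headers. The submitters' processing notes name edgeR, with no role, and GRCm38; the aligner, counter and use of strand are not given in the sources used here. Depth was estimated from the recovered reads (values whole within 0.01) as about 24800000 to 35200000 per library, an upper estimate. Every per-sample column matched 1 sample. The Poisson interval and the floors (3 reads) cover counting error only, whereas the limma intervals hold counting error and the spread between mice together. Replicates are separate mice, numbered in order of deposition, which pairs nothing.

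TPM were taken as log2(TPM + 1) and genes with a mean of at least 0.5 TPM entered linear models (limma 3.58.1, R 4.3.3) whose two-sided p-values were adjusted by Benjamini-Hochberg over all tested genes. The genotype fit had sex as a covariate. A model of the 4 group means gave the effects within each sex, their difference and the sex differences. The fitting was tested on simulated data. Positions come from GENCODE mouse release 21 (GRCm38) and promoters from RefSeq. The rule for naming genes took the 9 markers, of each other list the 3 called genes of largest absolute difference, and of each marker type the 5 genes most like it; genes it took from the lists of other cell types that the text does not describe gene by gene are shown only as points by list; *Lck*, *Lat*, *Gzmb*, *Ccl5*, *Cd22*, *Cd79b*, *Cxcr6*, *S1pr1*, *Iglc2*, *Cxcl11*, *Cxcl12* and the constant genes listed at 0 were named beside these after their values were seen. The members and lists were chosen with earlier results of these data known. No list was tested as a set. Alternatives were another pseudocount, no filter, median-of-ratios rescaling, the early animals as a covariate or left out, no sex covariate, and each mouse left out.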

Additional observations from a re-analysis of the deposited data

Results flagged for a closer look

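*Cd4* moved in opposite directions in the sexes: every KO male was below every WT male and every KO female above every WT female. The male minus female difference of the genotype effects was -0.66 on the log2(TPM + 1) scale (SE 0.213), which did not pass the limma test after adjustment over all genes (adjusted p = 0.325, 0 of 18 alternatives past the threshold).

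*Nkg7* in WT male replicate 1, at 2.07 TPM from 20 reads, stood apart from the other 5 WT mice: its gap to the nearest, divided by the range, was 0.739, above the 95% critical value of Dixon's test for 6 samples. Chance alone flags about 1 in 20 groups. Without that mouse the KO minus WT difference of *Nkg7* was 0.22 (limma adjusted p = 0.316) in place of 0.03.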

How the results depend on the processing

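The count of called markers was 0 in every comparison as reported. In the genotype comparison it became 1 with no filter and rescaling together (*Ms4a1*). In males it became 1 with a pseudocount of 0.1, 1 with no filter, 2 with rescaling and 1 with no filter and rescaling together, and it ran from 0 to 1 when each mouse was left out. In females it ran from 0 to 1 when each mouse was left out. For the sex difference in WT it became 1 with a pseudocount of 0.1 and 1 without the early animals, and ran from 0 to 1 when each mouse was left out. *Cd8a*, *Klrb1c* and *Ms4a1* enter these counts only in fits without the filter. Leaving out both early animals, joining no filter with rescaling, and the other alternatives of these 3 genes without the filter were chosen after seeing the data. Of 165 marker differences between genotypes over the alternatives, 141 kept their sign and 24 took the other sign, none of these past the threshold; 5 of the 165 were past it, all of *Ms4a1*. The cause of these changes was not tested. No paired analysis was possible because replicate numbers follow the order of deposition and the labels pair no mice. Of the 108 values 56.5% rest on under 10 reads; the standard errors hold counting error and the spread between mice together, and their parts were not separated.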
